A study of Mus musculus with 56 samples.

Results

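Adipoq, Lep, Fabp4, Cidec, Plin1, Plin4, Retn, Lpl, Cd36 and Pparg, 10 genes that fat cells express at high levels, were followed through the lung, liver and forestomach of male mice given chrysene, a polycyclic aromatic hydrocarbon. They were chosen by name, and their probes were found among the 20018 genes that could be named on the array. Where a gene had several probes, the probe with the highest mean Cy5 signal was used, and it was the same probe in each of the 3 tissues. The animals were adult MutaMouse males, aged about 14 weeks, a transgenic strain used to score mutations, and the transgene was carried by treated and control mice alike. They were gavaged on each of 28 days with the olive oil vehicle (D0) or with chrysene, at a daily dose per kg of body weight of 17.5 mg in group D1, 50 mg in group D2 and 150 mg in group D3, and tissue was taken 72 hours after the last dose. RNA came from randomly cut slices of each organ. Each tissue of each mouse was 1 array. Every dose group had 5 arrays per tissue, except that D2 had 3 for lung and 4 for the other organs.

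Adipocytes store triglyceride in a single large lipid droplet and release fatty acids from it on demand. Adipoq (adiponectin), Lep (leptin) and Retn (resistin) encode hormones that fat cells secrete. Fabp4 carries fatty acids in the cytosol, and Cidec, Plin1 and Plin4 encode proteins that coat or enlarge the lipid droplet. Lpl releases fatty acids from circulating lipoproteins, Cd36 takes them up, and Pparg is the nuclear receptor that drives fat cell differentiation. Fabp4, Lpl, Cd36 and Pparg are also made by capillary endothelium, macrophages or both, so in these organs they do not mark fat cells alone. Cidec and Plin4 were measured on all 18 lung arrays and Adipoq on 13, so Cidec and Plin4 need not mark fat cells alone here either. Lung, liver and forestomach are not adipose organs, but fat lies along the airways, at the hilum and on the outer wall of the stomach.

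Each value is a log2 ratio of the tissue (Cy5) to a universal mouse reference RNA (Cy3) on the same array, so that 1 unit is a 2-fold difference, and only ratios of the same gene were compared. A spot counted as measured where the scanner software called its Cy5 signal well above background. Fabp4, Cd36 and Pparg were measured on all 56 arrays. Adipoq was measured on 13 of 18 lung arrays, 0 of 19 liver arrays and 10 of 19 forestomach arrays, Plin1 on 12, 0 and 8, and Retn on 15, 0 and 10. Cidec was measured on 18 lung, 6 liver and 14 forestomach arrays, Plin4 on 18, 8 and 19, and Lpl on 18, 19 and 16. Lep was measured on 1 lung array and 1 liver array, with ratios between -0.11 and 0.41 on all 56 arrays, and was tested nowhere. A gene was tested in a tissue where at least 3 arrays measured it, which left 9 genes in lung and forestomach and 6 in liver. The markers of the organs themselves stood where the labels put them: the 3 alveolar type 2 genes averaged at least 6.97 in the D0 lungs, the 6 hepatocyte genes at least 6.11 in the D0 livers and the 5 keratinocyte genes at least 3.66 in the D0 forestomachs.

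Some features of the arrays touch every result below. Spots well above background made up 49.0% to 56.7% of a lung array, 34.5% to 46.4% of a liver array and 18.9% to 51.7% of a forestomach array. In forestomach this share was 40.4% to 51.7% on the 7 arrays of slide 1 and 18.9% to 34.9% on the other 2 slides. Each tissue was run on slides of its own, so tissue and slide cannot be told apart. Column 1 of the lung slides held every D0 lung and no dosed one, so column and dosing cannot be told apart there. The forestomach arrays also differed in glandular stomach RNA: the 8 genes of that list (Atp4a, Atp4b, Pgc, Tff1, Tff2, Gkn1, Gkn2, Muc5ac) averaged between 0.65 and 6.65 in D0 and between 0.55 and 6.80 in D3.

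Promoter sequences were taken from the RefSeq table of the assembly GRCm38.p6, which held 11 promoters of 8 of the 10 genes. The 250 bases before the start site are shown for Adipoq (chr16:23146286-23146535, plus strand), Plin1 (chr7:79732777-79733026, minus strand), Plin4 (chr17:56109783-56110032, minus strand) and Retn (chr8:3655520-3655769, plus strand), because Plin1, Plin4 and Retn had the highest correlations with Adipoq between lungs among the genes with a promoter in the table. Capitals mark matches, on either strand, to any of 5 motifs. The first is TATAAA, which sits near many transcription starts. The second is CCAAT, bound by the factor NF-Y. The third is AGGTCA, bound by nuclear receptors such as the one Pparg encodes. The fourth, DR1, repeats the third in the same orientation with 1 base between the copies, so each DR1 match counts as a match to the third as well. The last is TTGCNNAA, the core of a C/EBP site.
Adipoq: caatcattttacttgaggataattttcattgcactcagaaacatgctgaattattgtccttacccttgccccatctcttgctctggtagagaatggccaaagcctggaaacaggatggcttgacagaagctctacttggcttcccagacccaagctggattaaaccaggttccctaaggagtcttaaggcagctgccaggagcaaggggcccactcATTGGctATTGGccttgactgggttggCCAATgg
Plin1: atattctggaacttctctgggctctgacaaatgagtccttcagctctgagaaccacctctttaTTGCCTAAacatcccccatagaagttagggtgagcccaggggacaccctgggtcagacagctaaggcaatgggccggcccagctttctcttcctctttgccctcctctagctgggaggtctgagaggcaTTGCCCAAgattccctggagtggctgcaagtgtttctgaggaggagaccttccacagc
Plin4: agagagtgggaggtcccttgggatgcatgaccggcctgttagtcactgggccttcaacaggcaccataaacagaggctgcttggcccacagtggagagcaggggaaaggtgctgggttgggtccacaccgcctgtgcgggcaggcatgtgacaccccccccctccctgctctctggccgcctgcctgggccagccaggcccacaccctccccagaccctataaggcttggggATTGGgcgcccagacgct
Retn: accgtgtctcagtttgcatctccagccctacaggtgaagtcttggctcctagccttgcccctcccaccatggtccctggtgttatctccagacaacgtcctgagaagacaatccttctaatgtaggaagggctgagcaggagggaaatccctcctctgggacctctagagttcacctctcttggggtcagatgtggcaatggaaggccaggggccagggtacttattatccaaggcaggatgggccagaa
The Adipoq window held 3 matches to CCAAT, beginning 34, 27 and 7 bases before the start. The Plin1 window held 2 matches to TTGCNNAA, beginning 187 and 58 bases before it, the Plin4 window held 1 match to CCAAT, 18 bases before it, and the Retn window held no match to any of the 5 motifs. Counted per promoter, CCAAT was in 5 of the 11, where 33.8% of all 32851 promoters in the table had it. TTGCNNAA was in 4 of the 11 (of Lep, Cidec, Plin1 and Pparg), against 9.56% of all promoters, AGGTCA in 3 (of Cd36 and Pparg), against 14.0%, and TATAAA in 1 (of Pparg), against 12.4%. DR1 was in 0 of the 11 and in 0.0335% of all promoters. These are letter matches in a window and not binding sites.

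The D0 mice showed where the genes were expressed without chrysene. Among the secreted hormones, Adipoq in the forestomachs of D0 mice 1 to 5 was 0.14, 5.47, -0.12, 0.01 and 5.24. The values of mice 2 and 5 were well above background, and the other 3 were not measurable. In the lungs of the same mice Adipoq was 0.30, -0.05, 0.06, 2.29 and 1.36, with mice 4 and 5 highest, and in the livers it lay between -0.21 and 0.05 with no array well above background. The means were 2.15 ± 2.93 (SD, n = 5) in forestomach, 0.79 ± 1.00 (SD, n = 5) in lung and -0.07 ± 0.10 (SD, n = 5) in liver. Because liver gave no measurable signal, no difference from liver is given, and the Cy5 channel gives only a bound, at least 4.37-fold higher in forestomach and at least 1.74-fold higher in lung. Each bound sets the mean of the brighter tissue against the higher, on each dim array, of its own signal and the lowest signal called above background, with both channels normalized across arrays. The forestomach bound rested on mice 2 and 5, being 2.43-fold without mouse 2 and 2.59-fold without mouse 5, and the lung bound was 1.32-fold without mouse 4. Each bound holds any dye bias as well, since dyes were not swapped, and no bound was tested. The difference between forestomach and lung (1.35, adjusted p = 0.176 in limma over all 56 arrays) did not pass. Retn had the same order: its D0 mean was 1.60 ± 2.66 in forestomach, 0.49 ± 1.04 in lung and -0.29 ± 0.15 in liver (SD, n = 5 each). Mice 2 and 5 were at 4.71 and 4.32 and the other 3 forestomachs between -0.48 and -0.25. Retn was measured on no liver either, and no fold against liver is given.

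Of the genes for the fatty acid carrier and the droplet proteins, Fabp4, Plin4 and Cidec passed in at least 1 comparison of tissues, and Plin1 did not pass between forestomach and lung. Fabp4 was 6.28, 7.40, 4.40, 6.19 and 7.37 in the D0 forestomachs, between 0.96 and 3.89 in the lungs and between 2.20 and 2.50 in the livers. All 5 forestomachs lay above all 10 other arrays, and the difference was 3.94 (SE 0.68) from liver, or 15.3-fold, and 3.79 (SE 0.68) from lung, or 13.9-fold, both past the test (adjusted p = 1.74e-06 and 4.07e-06). Where each array was only centred on its median, the difference from lung was 1.42 (adjusted p = 0.161) and did not pass. Plin4 was 0.37 to 1.67 in forestomach, -1.39 to -0.29 in lung and -1.99 to -1.24 in liver. Forestomach exceeded liver by 2.67 (SE 0.44) and lung by 1.90 (SE 0.44, adjusted p = 0.000242), with no overlap, although only 2 of the 5 D0 livers were well above background and the second difference was -0.10 with median centring alone. For Cidec the D0 lungs held 3.11, 3.29, 3.36, 3.26 and 3.65 and the livers 0.11 to 0.80, a difference of 2.90 (SE 0.65, adjusted p = 0.000109). Only 1 of the 5 D0 livers was well above background for Cidec, so the size of its differences from liver rests mostly on values at background. The D0 forestomachs spread from 0.06 to 5.12 for Cidec, and mice 2 and 5 were again the highest, at 5.12 and 4.95. Forestomach and lung differed in Cidec by -1.03 (SE 0.65, adjusted p = 0.169), which did not pass. Forestomach exceeded liver by 1.88 (SE 0.65, adjusted p = 0.0109), but by 1.09 without mouse 2 (adjusted p = 0.155) and by 1.31 without mouse 5 (adjusted p = 0.096). Plin1 was measured on 2 of 5 D0 lungs, 2 of 5 forestomachs (3.21 in mouse 2 and 2.85 in mouse 5) and no liver, and forestomach and lung differed by 0.73 (SE 0.56, adjusted p = 0.264). Its bounds against liver, which were not tested, were at least 2.00-fold higher in forestomach than in liver (1.41-fold without mouse 2), and at least 1.34-fold in lung (1.16-fold without mouse 4).

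The genes for fatty acid uptake were highest in lung. Cd36 was 4.54, 4.80, 4.46, 4.34 and 3.68 in the D0 lungs, 0.43 to 2.32 in the forestomachs and -0.60 to -0.27 in the livers, and no value of one tissue reached that of another. Lung exceeded liver by 4.83 (SE 0.30, adjusted p = 1.1e-19), or 28.5-fold, forestomach exceeded liver by 1.74 (SE 0.30), or 3.35-fold, and forestomach lay below lung by -3.09 (SE 0.30), or 8.53-fold. Lpl was 1.15 to 2.07 in the D0 lungs and -1.17 to -0.11 in the livers, a difference of 2.38 (SE 0.48), or 5.20-fold. In the D0 forestomachs Lpl spread from -1.08 to 2.04. It lay below lung by -1.33 (SE 0.48, adjusted p = 0.0141), which did not pass without mouse 1, 4 or 5, and above liver by 1.05 (SE 0.48, adjusted p = 0.0526). With the mouse as a replicate block, which uses the fact that the tissues of 1 number came from 1 animal, the last of these passed (adjusted p = 0.0322). Capillary endothelium also makes Cd36 and Lpl, and its 6 markers averaged 4.73 to 5.23 in the D0 lungs, 1.16 to 1.65 in the livers and 0.29 to 1.21 in the forestomachs, all 6 being measured on every lung array. The part of the endothelium in these differences was not tested, and in bulk tissue fewer cells of a type and less RNA per cell cannot be told apart. Pparg, the regulator, was 0.80 to 2.90 in the D0 forestomachs, 0.52 to 0.95 in the lungs and 0.14 to 0.70 in the livers. Forestomach exceeded liver by 1.51 (SE 0.28) and lung by 1.14 (SE 0.28, adjusted p = 0.000524), but with median centring alone the latter was -1.04 (adjusted p = 0.161). Lung and liver differed in Pparg by 0.37 (adjusted p = 0.241). Every test between tissues used 1 spread per gene, pooled over all 3 tissues. The D0 SD of Pparg was 0.16 in lung, 0.21 in liver and 0.89 in forestomach, so the forestomach spread entered the comparison of lung with liver.

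Adipoq, Plin1 and Retn were left out of the counts against liver, where no array measured them. Of the other 6 genes, 3 passed in lung against liver, all higher in lung (Cidec, Lpl, Cd36), where 46.0% of all probes tested passed. In forestomach against liver 5 of the 6 passed, all higher in forestomach (all but Lpl), where 40.9% of all probes did. These shares include probes measured in 1 of the 2 tissues. In forestomach against lung 5 of 9 passed, 3 higher (Fabp4, Plin4, Pparg) and 2 lower (Lpl, Cd36), where 37.6% of all probes did. To pass, a gene needed a fold change of 1.5 or more and a p, adjusted by Benjamini-Hochberg across the tested probes, no higher than 0.05. Centring each array on its median alone shifted the median of all probes by 0.62 between lung and liver, -0.17 between forestomach and liver and -0.95 between forestomach and lung. With it Plin4 (1.90) and Pparg (1.65) were added in lung against liver, Plin4, Cd36 and Pparg were lost in forestomach against liver, and Fabp4, Plin4 and Pparg were lost in forestomach against lung. The plot of the 10 genes in the 3 tissues shows that the livers lay close together for Adipoq, Plin1 and Retn, whereas lungs and forestomachs spread over several units.

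**Figure D1:**
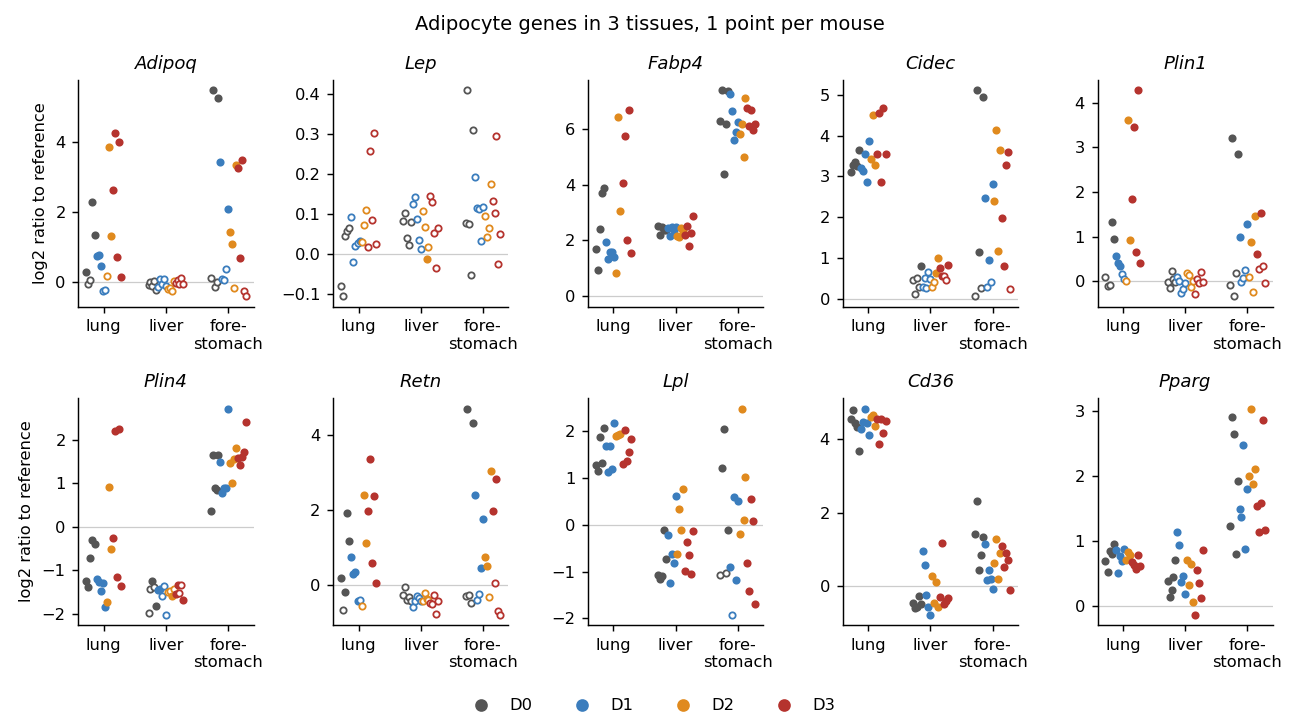
Log2 ratio to the reference (vertical axis, a scale of its own for each gene) of the 10 adipocyte genes in lung (18 mice), liver (19 mice) and forestomach (19 mice), 1 point per mouse, coloured by dose group. Filled points were well above background and open points were not; Adipoq, Plin1 and Retn have no filled point in liver, and Adipoq reached 4.24 in a lung and 5.47 in a forestomach.

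In lung, Adipoq, Fabp4, Cidec, Plin1, Plin4 and Retn were highest in some of the D3 mice and in 1 D2 mouse, whereas the highest values of Lpl (2.17) and Cd36 (4.84) were in D1 and that of Pparg (0.95) in D0. Adipoq was 0.30, -0.05, 0.06, 2.29 and 1.36 in D0 mice 1 to 5, as given above, and 2.62, 4.24, 0.74, 4.01 and 0.14 in D3 mice 16 to 20. The D1 lungs lay between -0.23 and 0.79, and the 3 D2 lungs (mice 12, 13 and 15) were 0.19, 3.85 and 1.33. Mice 13, 17 and 19 stood above all others, and the D0 and D3 groups overlapped. The D3 mean of 2.35 ± 1.86 (SD, n = 5) exceeded the D0 mean of 0.79 ± 1.00 (SD, n = 5) by 1.56 (SE 0.77), which did not pass the test (adjusted p = 0.330). Adipoq was well above background on 3 of the 5 D0 lungs.

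Plin1, the droplet coat protein that gates lipolysis, was 0.09, -0.11, -0.08, 1.33 and 0.94 in the D0 lungs and 1.84, 3.46, 0.64, 4.29 and 0.41 in the D3 lungs, with 3.61 in mouse 13 of D2. Its difference of 1.70 (SE 0.69, 95% interval 0.24 to 3.15) had an unadjusted p below 0.05 and an adjusted p of 0.250. Only 2 of the 5 D0 lungs were well above background for Plin1, so the size of this difference rests partly on values at background. Retn was 0.18, -0.65, -0.18, 1.92 and 1.16 in D0 and 1.98, 3.36, 0.58, 2.39 and 0.06 in D3, a difference of 1.18 (SE 0.63, adjusted p = 0.364). The same 3 mice held its highest values, with mouse 13 at 2.41. Fabp4 ran from 0.96 to 3.89 in D0 and was 4.06, 5.75, 2.03, 6.67 and 1.55 in D3, with mouse 13 at 6.43, a difference of 1.48 (SE 0.99, adjusted p = 0.485). Plin4 ran from -1.39 to -0.29 in D0 and was -0.26, 2.21, -1.15, 2.26 and -1.37 in D3, a difference of 1.15 (SE 0.64, adjusted p = 0.385). Mice 17 and 19 were the 2 highest for Plin4 and mouse 13, at 0.92, the next. Cidec was 3.54, 4.56, 2.86, 4.69 and 3.55 in D3, where mice 17 and 19 lay above every D0 value and mouse 18 below, a difference of 0.51 (SE 0.31, adjusted p = 0.436).

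Lpl, Cd36 and Pparg varied less between lungs than these genes, with residual SDs within dose groups of 0.36, 0.31 and 0.13. The SDs of Lpl and Cd36 were still larger than those of 92.8% and 90.2% of lung probes. Lpl differed between D3 and D0 by 0.07 (95% interval -0.36 to 0.51), Cd36 by -0.04 (-0.42 to 0.35) and Pparg by -0.10 (-0.28 to 0.07). Pparg lay between 0.50 and 0.95 in all 18 lungs. Beside them, the list of 7 alveolar macrophage markers averaged 4.08 to 5.23 in D0 and 3.94 to 4.44 in D3, and the endothelial list 4.73 to 5.23 and 4.52 to 5.22.

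**Figure D2:**
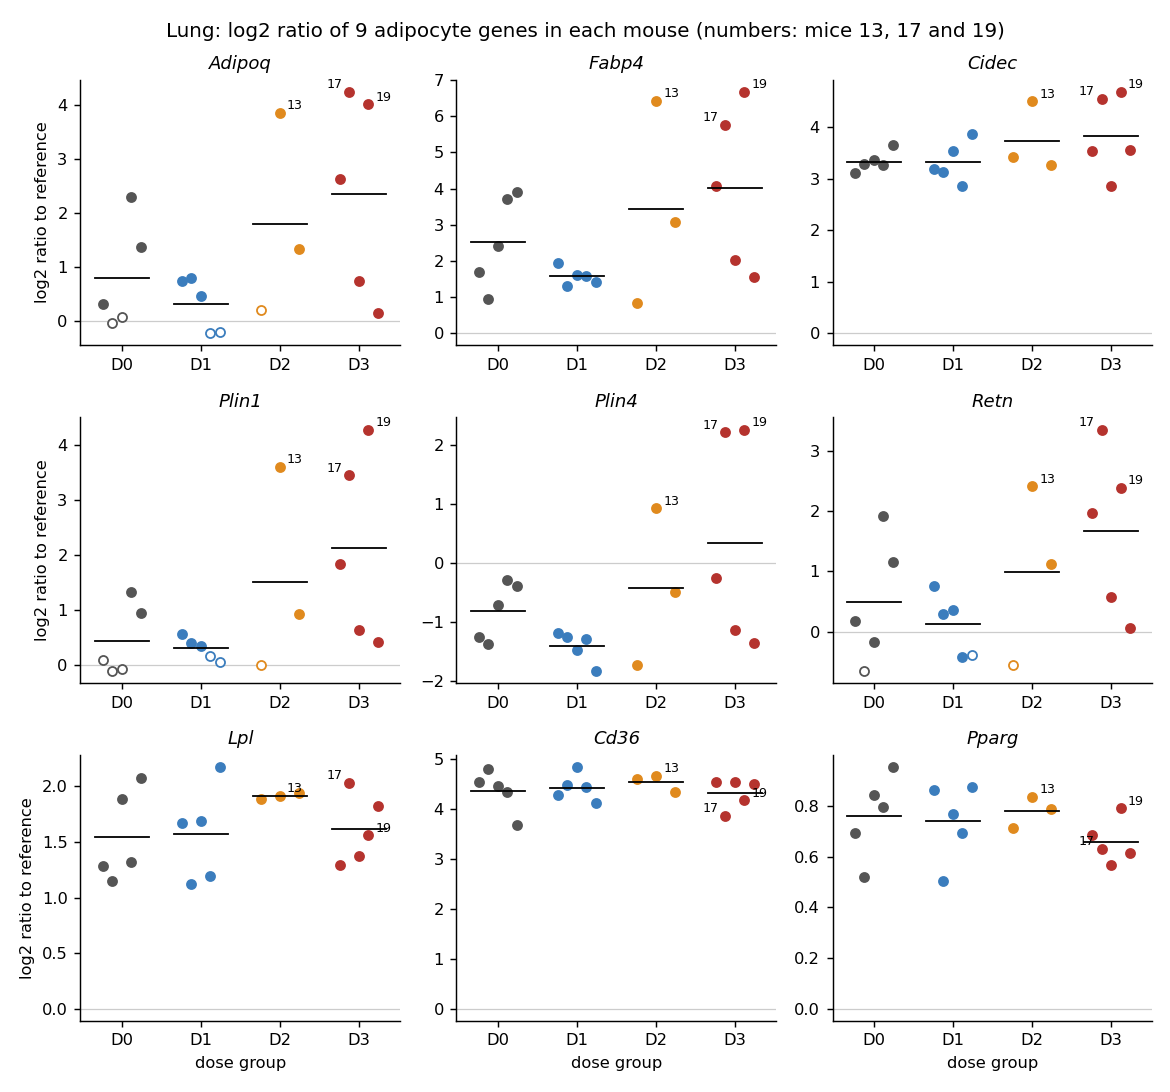
Log2 ratio to the reference (vertical axis) of 9 adipocyte genes in each lung, by dose group (horizontal axis; n = 5, 5, 3 and 5). Points are mice, filled where well above background, bars are group means, and mice 13, 17 and 19 are numbered: they hold the 3 highest values of Adipoq, Fabp4, Cidec, Plin1, Plin4 and Retn but not of Lpl, Cd36 or Pparg.

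The lungs of mice 13, 17 and 19 stood apart in other markers too. The 8 skeletal muscle genes averaged 5.22 in mouse 17 and 5.38 in mouse 19, with all 8 measured, and between -0.90 and -0.01 in the other 16 lungs. Myh4, the fast myosin heavy chain, was 5.95 and 6.32 in these 2 lungs and between -0.22 and 0.33 in the others. The 5 keratinocyte genes averaged 3.81 and 4.25 in mice 17 and 19 and between -0.72 and -0.43 elsewhere. Brown adipocyte markers were highest in mice 13, 17 and 19. Ucp1, the uncoupling protein that defines brown fat, was 6.03 in mouse 13, 6.74 in mouse 19, 1.86 in mouse 17 and between -0.10 and 0.68 in the other 15 lungs, and the 5 genes of the brown adipocyte list averaged 3.20, 3.45 and 1.98 in these mice and between 0.21 and 1.08 elsewhere. In D0 the brown list averaged 0.31 to 0.87 with 3 of its 5 genes measured. The part of muscle, keratinocytes and brown fat in the lung values was not tested. Without mice 17 and 19 the D3 differences were 0.37 for Adipoq, 0.53 for Plin1, 0.38 for Retn, 0.01 for Fabp4, -0.11 for Plin4 and -0.02 for Cidec, and adjusted p lay between 0.802 and 0.998 for these 6. Without mouse 17 alone the Plin1 difference was 1.36 (adjusted p = 0.464), and without mouse 19 alone 1.15 (adjusted p = 0.521).

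Within slides the lung difference was uneven. On slide 1, with mouse 17 in D3 and mice 1 and 2 in D0, the D3 value exceeded D0 by 4.11 for Adipoq, 3.47 for Plin1 and 4.43 for Fabp4. On slide 2, with mice 18 and 19 in D3 and mouse 4 in D0, the differences were 0.09, 1.14 and 0.65, and on slide 3, with 2 mice in each group, 0.67, 0.69 and -0.35.

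Over the dose steps 0 to 3, the linear trend in lung gave a fitted D0-to-D3 change of 1.82 (SE 0.75) for Adipoq, 1.87 (SE 0.65) for Plin1, 1.34 (SE 0.63) for Plin4 and 1.33 (SE 0.60) for Retn. Adjusted p was 0.226, 0.163, 0.278 and 0.262, and none passed. Fabp4 had the change 1.86 (SE 0.97, adjusted p = 0.336). The 4 named first had an unadjusted p of at most 0.05, which 17.3% of all lung probes had. Without mice 17 and 19, 0 of the 9 did, beside 11.7% of all probes in that fit, and the trend was 0.76 for Adipoq and 0.85 for Plin1.

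In limma, 0 of the 9 tested genes passed in lung at D1, D2 or D3 or in the trend. Of all lung probes 0% passed at D1, 0% at D2, 0.127% at D3 and 0.168% in the trend. The last 2 shares depended on single mice: leaving out 1 mouse at a time put the count at D3, 40 probes with all mice, anywhere from 0 (without mouse 1) to 143 (without mouse 16), and the count in the trend, 53 probes, from 12 (without mouse 4) to 125 (without mouse 16). Without mice 17 and 19 both counts were 0. An unadjusted p of at most 0.05 was reached by 0 of the 9 at D1 (5.88% of all probes), 0 at D2 (6.11%) and 1, Plin1, at D3 (16.2%). The median difference of the 9 at D3 was 1.15, beside -0.03 over all lung probes, and it was 0.68 without mouse 17, 0.67 without mouse 19 and 0.01 without both. At D1 the median difference of the 9 was -0.13, beside 0.0036 over all probes, and Fabp4 was 1.57 ± 0.24 (SD, n = 5) in D1 and 2.53 ± 1.26 (SD, n = 5) in D0.

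The spread between mice of a dose group was itself large. The residual SD of Fabp4 within lung dose groups was 1.75, rank 49 from the top among 31466 probes whose median was 0.159. The groups were unequal: the SD of Fabp4 was 1.26 in D0, 0.24 in D1, 2.82 in D2 and 2.24 in D3. Adipoq had a residual SD of 1.36 (rank 106), Plin1 1.21 (rank 143), Plin4 1.12 (rank 171), Retn 1.11 (rank 176) and Cidec 0.54 (rank 890). Pparg, at 0.13, was below the median probe.

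In forestomach Adipoq, Retn, Plin1 and Cidec were high in some mice and at background in others, and the 2 highest were D0 mice. Fabp4, Plin4, Cd36 and Pparg were measured on all 19 arrays, with the highest Fabp4 (7.40) and Cd36 (2.32) in D0, the highest Plin4 (2.73) in D1 and the highest Pparg (3.03) and Lpl (2.48) in D2. Adipoq was 5.47 and 5.24 in D0 mice 2 and 5 and between -0.12 and 0.14 in D0 mice 1, 3 and 4. In D1 it was 3.41 in mouse 6, 2.09 in mouse 10 and between 0.07 and 0.39 in the other 3. In D2 it was 3.35 in mouse 15, 1.42 in mouse 11, 1.09 in mouse 12 and -0.17 in mouse 13. In D3 it was 3.26, 0.69, 3.49, -0.25 and -0.39 in mice 16 to 20. The D3 mean of 1.36 ± 1.89 (SD, n = 5) lay below the D0 mean of 2.15 ± 2.93 (SD, n = 5) by -0.79 (SE 1.20, 95% interval -3.32 to 1.74), which did not pass (adjusted p = 0.907). Leaving out 1 mouse at a time put this difference anywhere between -1.35 and 0.04.

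Retn followed Adipoq closely: 4.71 and 4.32 in D0 mice 2 and 5, and 1.99, 0.07, 2.82, -0.70 and -0.79 in D3, a difference of -0.92 (SE 1.08, adjusted p = 0.876) that ran from -1.46 to -0.15 with 1 mouse left out. Plin1 was 3.21 and 2.85 in D0 mice 2 and 5 and at most 1.54 in any D3 mouse, a difference of -0.62 (SE 0.61, adjusted p = 0.838) that ran from -0.99 to -0.11. Cidec was 5.12 and 4.95 in the same D0 mice and 1.97, 0.80, 3.28, 3.59 and 0.23 in D3, a difference of -0.34 (SE 1.01, adjusted p = 0.959) that ran from -0.90 to 0.36. Mouse 19 thus had Cidec at 3.59 with Adipoq at background. Fabp4, high in every forestomach at 4.40 to 7.40, differed by 0.01 (95% interval -1.02 to 1.04). Plin4 was 0.37, 1.66, 0.90, 0.85 and 1.67 in D0 and 1.60, 1.42, 1.61, 1.73 and 2.42 in D3, a difference of 0.67 (SE 0.34, adjusted p = 0.576), with overlap.

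Cd36 was 1.41, 2.32, 0.43, 0.85 and 1.34 in the D0 forestomachs and 1.10, 0.51, 0.90, 0.71 and -0.11 in D3, a difference of -0.65 (SE 0.32, adjusted p = 0.560). Lpl differed by -0.87 (SE 0.68, adjusted p = 0.774) and Pparg by -0.24 (SE 0.41, adjusted p = 0.922). The glandular stomach list was set beside Pparg. The 5 highest Pparg values, 3.03, 2.90, 2.86, 2.64 and 2.48 in mice 12, 2, 19, 3 and 8, stood in arrays with list means of 6.76, 6.65, 6.80, 5.86 and 5.44. The 5 lowest, 0.80, 0.88, 1.14, 1.17 and 1.24 in mice 4, 9, 17, 20 and 1, stood in arrays with list means of 0.65, 0.81, 1.57, 1.64 and 1.16. Lpl was 2.48 in mouse 12 and 2.04 in mouse 3, its 2 highest values. It averaged -0.81 over mice 19 and 20, whose list means were 6.80 and 1.64. The part of glandular stomach in these values was not tested. Adipoq was measured on 10 forestomach arrays. The list averaged 5.20 to 6.76 on those of mice 2, 5, 10, 11, 12 and 15 and 0.55 to 2.62 on those of mice 6, 16, 17 and 18. Where Adipoq was at background, the list averaged 5.33 to 6.80 in mice 3, 8, 13 and 19 and 0.31 to 1.64 in mice 1, 4, 7, 9 and 20, and no relation between the list and Adipoq was tested. The 8 skeletal muscle genes averaged between 0.02 and 0.45 in all forestomachs. Ucp1 was measured on 5 forestomach arrays, at 1.22 and 2.20 in D0 mice 2 and 5, 1.35 in mouse 10, 2.01 in mouse 18 and 0.68 in mouse 20, and lay between -0.15 and 0.56 on the other 14. The 5 genes of the brown adipocyte list averaged 2.33 and 1.91 in D0 mice 2 and 5, 0.72 to 1.17 in the other D0 mice and 0.89 to 2.11 in the dosed mice, with 2 to 4 of them measured on each array and Elovl3 on none. Cidea of this list was measured on all 19 forestomachs, at 2.82 to 6.94. The D0 livers averaged 1.22 to 1.46 on the list, with Elovl3 at 4.87 to 5.41 over all livers and Ucp1 measured on 0 of 19. The mean of the list thus does not mark brown fat alone. The part of brown fat in the forestomach values was not tested.

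**Figure D3:**
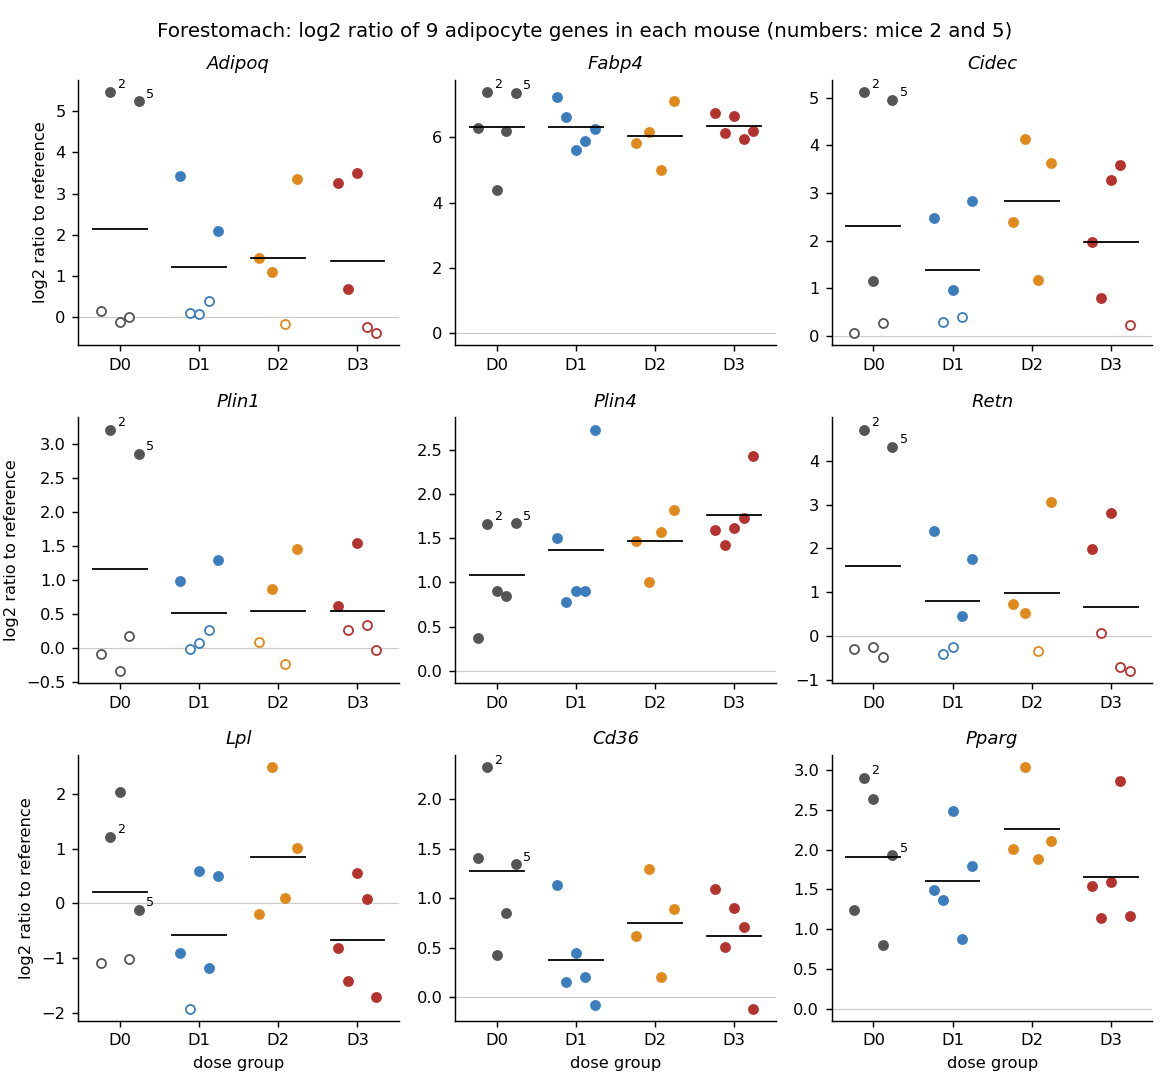
Log2 ratio to the reference (vertical axis) of 9 adipocyte genes in each forestomach, by dose group (horizontal axis; n = 5, 5, 4 and 5). Points are mice, filled where well above background, and bars are group means; D0 mice 2 and 5, numbered, have the 2 highest values of Adipoq, Cidec, Plin1 and Retn.

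Within slides the forestomach differences were uneven, with 1 or 2 mice per group on each slide, so that slide and mouse cannot be told apart. On slide 1, where D0 mice 2 and 5 and D3 mice 19 and 20 lay, D3 minus D0 was -5.67 for Adipoq and -5.26 for Retn. On slide 2 it was 1.84 and 1.32, with mice 16 and 17 in D3 and mouse 1 in D0. On slide 3 it was 3.55 and 3.19, with mouse 18 in D3 and mice 3 and 4 in D0. The direction thus differed between slides, and slide 1 was also the brightest. In limma 0 of the 9 genes passed in forestomach at any dose or in the trend, where 0% of all probes passed at D1, 0% at D2, 0.00727% at D3 and 0.0400% in the trend. At an unadjusted p of at most 0.05 the count was 1 at D1 (Cd36; 4.16% of all probes), 0 at D2 (7.52%), 0 at D3 (9.23%) and 0 in the trend (9.18%). The median difference of the 9 at D3 was -0.62, beside -0.0015 over all probes, and it was 0.01 without mouse 2 and -0.20 without mouse 5.

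In liver Adipoq, Plin1 and Retn were not measurable on any of the 19 arrays. Fabp4 was 2.50, 2.20, 2.48, 2.37 and 2.39 in D0 and 2.20, 2.50, 1.79, 2.28 and 2.89 in D3, a difference of -0.06 (95% interval -0.35 to 0.24). Lpl was -1.07, -1.17, -1.10, -0.11 and -0.74 in D0, and -0.63, 0.34, -0.12 and 0.76 in the 4 D2 mice, a difference of 0.93 (SE 0.33) that was the only 1 of the 6 with an unadjusted p of at most 0.05 at D2 and had an adjusted p of 0.998. At D3 Lpl was -0.99, -0.37, -0.65, -1.05 and -0.12, a difference from D0 of 0.20 (95% interval -0.45 to 0.85), and the D1 livers ran from -1.24 to 0.60. D2 was not tested against D3. Cd36 was between -0.60 and -0.27 in D0 and -0.28, 1.19, -0.50, -0.40 and -0.32 in D3, where mouse 17 alone was high, a difference of 0.41 (95% interval -0.27 to 1.09). The D1 mice 6 and 7 were also high, at 0.97 and 0.57. Pparg was highest in mice 6 and 7 too, at 1.14 and 0.94, and differed at D3 by -0.03 (95% interval -0.44 to 0.37). Plin4 and Cidec, measured on 8 and 6 livers, differed at D3 by 0.09 and 0.19.

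In liver 0 of the 6 tested genes passed at any dose or in the trend, as did 0% of all liver probes at D1, 0% at D2, 0% at D3 and 0% in the trend. At an unadjusted p of at most 0.05 the count was 0 at D1 (3.61% of all probes), 1 at D2 (3.80%), 0 at D3 (4.79%) and 0 in the trend (5.43%). Residual SDs were 0.57 for Cd36 and 0.54 for Lpl, larger than those of 98.6% and 98.4% of the 24716 probes tested, and 0.24 for Fabp4.

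**Figure D4:**
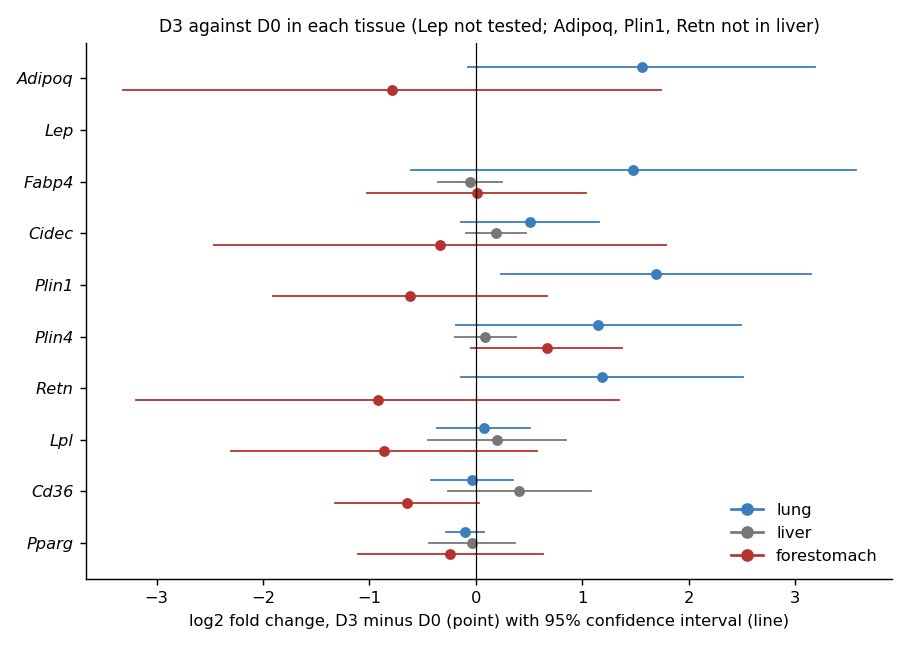
Log2 fold change of D3 minus D0 (horizontal axis) with its 95% confidence interval from limma for each adipocyte gene (vertical axis) in lung, liver and forestomach (n = 5 per group). The lung points of Adipoq, Plin1, Retn, Fabp4 and Plin4 lie between 1.15 and 1.70 with wide intervals, and the lung points of Lpl, Cd36 and Pparg lie at 0.07, -0.04 and -0.10.

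Whether the D3 difference itself changed between tissues was tested in 1 fit of the 56 arrays. The D3 difference was lower in forestomach than in lung in 9 of 9 genes, beside 46.5% of all probes, by -2.35 (SE 1.23) for Adipoq, -2.31 (SE 0.80) for Plin1 and -2.11 (SE 1.08) for Retn. Adjusted p was 0.426, 0.147 and 0.408, and 0 of the 9 passed, where 0.707% of all probes did. When mouse 2 was left out these were -1.30, -1.67 and -1.04 and Pparg turned to 0.18, and when mouse 17 was left out Plin4 turned to 0.07. The 9 genes are not independent, since several moved with Adipoq between mice. Their median D3 difference in lung was 1.15 with all mice and 0.01 without mice 17 and 19. The difference between tissues was not fitted without both of these mice. An unadjusted p of at most 0.05 was reached by 1, Plin1, and by 12.9% of all probes. Of the 6 genes measured in liver, 0 passed in lung against liver (0% of all probes) and 0 reached the unadjusted p (5.25%), and in forestomach against liver 0 passed (0.0777%) and 1 reached it (Cd36; 9.93%).

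Between mice, Adipoq and the other genes were compared as deviations from dose-group means, which removes the mean difference between doses. A response to dose that differed between mice of a group would remain in them. In lung the SD of Adipoq was 1.00 in D0, 0.50 in D1, 1.87 in D2 and 1.86 in D3. The relations numbered 17, and adjusted values are over these 17. In lung (n = 18 mice) Plin1 followed Adipoq with Pearson's r = 0.96 (permutation p = 1e-05, the smallest that 100000 permutations within dose groups can give, adjusted 5.67e-05) and Spearman's rho = 0.93 (permutation p = 2e-05, adjusted 0.000113). Retn had r = 0.96 (permutation p = 1e-05, adjusted 5.67e-05) and rho = 0.97 (permutation p = 2e-05, adjusted 0.000113). Fabp4 had r = 0.94 (permutation p = 0.00027, adjusted 0.000765) and rho = 0.90 (permutation p = 0.00062, adjusted 0.00176), and Plin4 r = 0.92 (permutation p = 0.00046, adjusted 0.00112) and rho = 0.88 (permutation p = 0.00089, adjusted 0.00216). Cidec had r = 0.71 (permutation p = 0.0259, adjusted 0.0441) and rho = 0.63 (permutation p = 0.0349, adjusted 0.0593). Lpl had r = 0.07 and rho = 0.10 (permutation p = 0.762 and 0.675, adjusted 0.762 and 0.675), Cd36 r = -0.39 and rho = -0.47 (permutation p = 0.124 and 0.0712, adjusted 0.163 and 0.0980), and Pparg r = 0.35 and rho = 0.47 (permutation p = 0.0863 and 0.0468, adjusted 0.122 and 0.0723).

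Without mice 17 and 19, the 2 farthest from the lung median of Adipoq, r was 0.96 for Plin1, 0.96 for Retn, 0.92 for Fabp4 and 0.91 for Plin4, and 0.48 for Cidec, so that the Cidec relation rested on those mice. It was -0.13 for Lpl, -0.12 for Cd36 and 0.32 for Pparg. With slide means removed as well, r in lung was 0.96 for Plin1, 0.95 for Retn, 0.96 for Fabp4, 0.90 for Plin4, 0.78 for Cidec, 0.36 for Lpl, -0.53 for Cd36 and 0.63 for Pparg. Pparg passed only in that form (adjusted permutation p = 0.00716), and so did Cd36 by rho = -0.58 (adjusted permutation p = 0.0477) but not by r (adjusted permutation p = 0.0762).

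In forestomach (n = 19 mice) Retn had r = 0.99 with Adipoq (permutation p = 1e-05, adjusted 5.67e-05) and rho = 0.98 (permutation p = 1e-05, adjusted 0.000113). Plin1 had r = 0.92 (permutation p = 9e-05, adjusted 0.000306) and rho = 0.91 (permutation p = 8e-05, adjusted 0.00034). Cidec had r = 0.80 (permutation p = 0.00304, adjusted 0.00646) and rho = 0.76 (permutation p = 0.00693, adjusted 0.0139), and Fabp4 r = 0.80 (permutation p = 7e-05, adjusted 0.000298) and rho = 0.75 (permutation p = 0.00046, adjusted 0.00156). Cd36 had r = 0.69 (permutation p = 0.00588, adjusted 0.0111) and rho = 0.65 (permutation p = 0.00737, adjusted 0.0139) in forestomach; the difference between the tissues was not tested. Plin4 had r = 0.47 and rho = 0.46 (permutation p = 0.0595 and 0.0749, adjusted 0.0920 and 0.0980), Lpl r = 0.24 and rho = 0.27 (permutation p = 0.397 and 0.337, adjusted 0.483 and 0.382) and Pparg r = 0.19 and rho = 0.33 (permutation p = 0.521 and 0.253, adjusted 0.554 and 0.308).

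Without D0 mice 2 and 5, r in forestomach was 0.98 for Retn, 0.83 for Plin1, 0.66 for Fabp4, 0.59 for Cd36, 0.56 for Cidec, 0.20 for Lpl, 0.20 for Plin4 and -0.11 for Pparg, so that the Cidec relation rested on those mice. For Cd36, r then missed the threshold (adjusted permutation p = 0.0545) and rho = 0.58 passed it (adjusted permutation p = 0.0484). With slide means removed, r was 0.99 for Retn, 0.93 for Plin1, 0.82 for Cidec, 0.78 for Fabp4, 0.66 for Cd36, 0.36 for Plin4, 0.20 for Lpl and 0.05 for Pparg. The forestomach arrays fall partly into a set at background and a set above it. Over the 10 arrays with Adipoq well above background, r was 0.97 for Retn, 0.85 for Fabp4 and 0.64 for Plin1, and Retn alone passed (adjusted permutation p = 0.0238). Over the 13 such lung arrays r was 0.97 for Retn, 0.96 for Fabp4, 0.96 for Plin1 and 0.94 for Plin4, all past the test. This restriction was chosen after the data were seen.

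**Figure D5:**
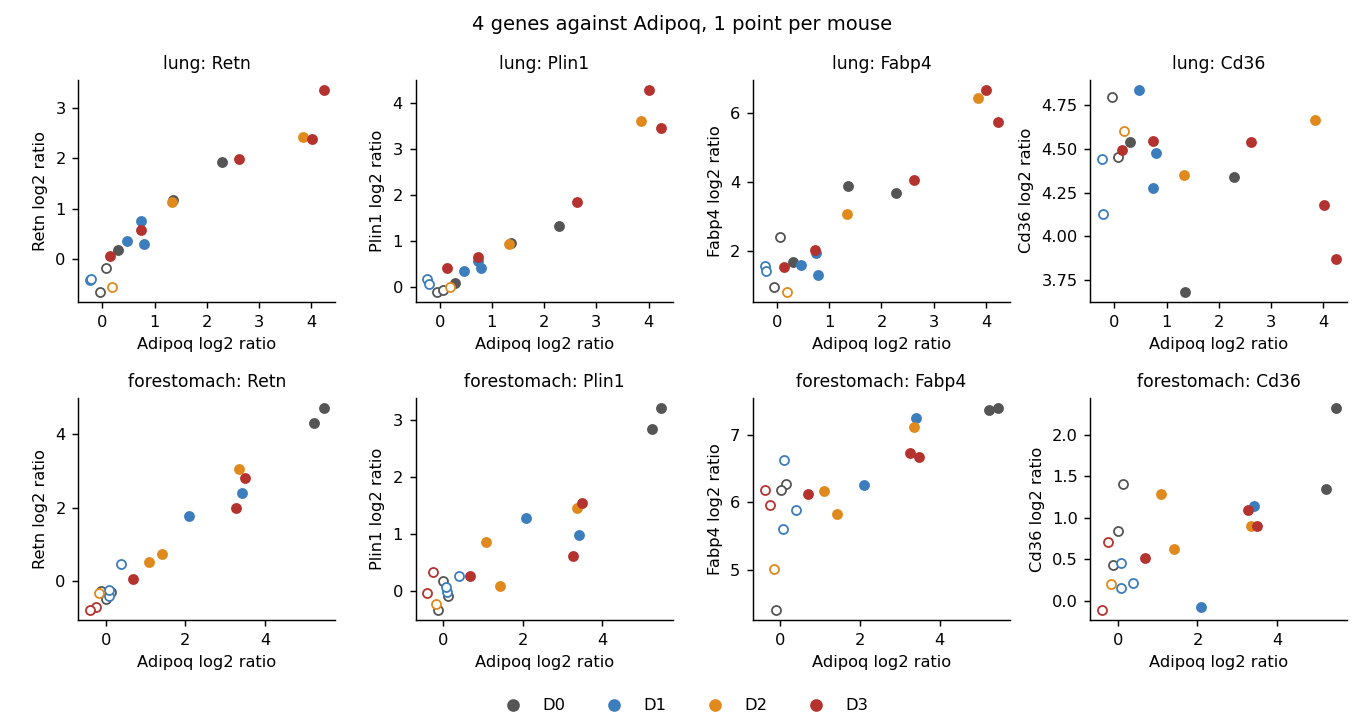
Log2 ratio of Retn, Plin1, Fabp4 and Cd36 (vertical axes) against that of Adipoq (horizontal axes) in lung (top, 18 mice) and forestomach (bottom, 19 mice), 1 point per mouse, coloured by dose group and open where Adipoq was not well above background. The Retn points follow Adipoq closely in both tissues (r of the deviations from dose-group means 0.96 and 0.99), whereas the Cd36 points have r = -0.39 in lung and 0.69 in forestomach.

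No relation between the Adipoq levels of the lung and the forestomach of a mouse passed the test. Over the 18 mice with both tissues r was -0.20 (permutation p = 0.456, adjusted 0.517) and rho -0.12 (permutation p = 0.654, adjusted 0.675), with r = -0.05 without mice 17 and 19 and -0.16 with slide means removed. Mouse 19, with Adipoq at 4.01 in lung, was at -0.25 in forestomach, and mouse 2, at 5.47 in forestomach, was at -0.05 in lung. Mouse 13, at 3.85 in lung, was at -0.17 in forestomach. Mice 5, 15 and 16 were among those above background in both, at 1.36, 1.33 and 2.62 in lung and 5.24, 3.35 and 3.26 in forestomach.

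The genes outside the list whose pattern was most like Adipoq were found by Pearson's r over the same deviations, among genes measured on at least 9 of the lung arrays or 10 of the forestomach arrays. In lung these were, of 14065 genes and over 18 arrays, Car3 (carbonic anhydrase 3, abundant in fat and muscle) with r = 0.97, Thrsp (a regulator of lipogenesis) with 0.95, Adig (adipogenin) with 0.95, Lctl with 0.94 and Mrap (a partner of melanocortin receptors) with 0.94. In forestomach, of 10809 genes and over 19 arrays, they were Thrsp with 0.98, Cfd (adipsin, a secreted serine protease) with 0.96, Car3 with 0.95, Adig with 0.92 and Fasn (fatty acid synthase) with 0.87. Car3, Thrsp and Adig stood among the 5 in both tissues. Car3 ran from -0.65 to 6.10 over the lungs and from -0.16 to 5.75 over the forestomachs, and Lctl only from -0.99 to 0.32 over the lungs. Of all 31465 other lung probes tested, 3 had a higher r with Adipoq than Plin1, 4 than Retn, 7 than Fabp4, 13 than Plin4 and 495 than Cidec. Of 27504 in forestomach, 0 had a higher r than Retn, 5 than Plin1, 27 than Cidec, 31 than Fabp4 and 143 than Cd36. Arrays of a tissue share slides, and these counts are a description.

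Beyond the 10 genes, 36 genes of fat cell regulation, lipid droplets, triglyceride synthesis, secretion and hormone receptors were read as a list, all of which could be named and were tested in lung and forestomach. At D3 in lung 0 of 36 passed. An unadjusted p of at most 0.05 was reached by 5 upwards and 4 downwards of the 36, and by 16.2% of all probes, and the median difference was 0.12, beside -0.03 over all probes. Of the 14 genes of uptake and triglyceride synthesis 13 lay higher in D3, as did 42.5% of all probes. Dgat2, the enzyme that completes triglyceride, had a log2 difference of 1.85 (SE 0.67, adjusted p = 0.206), and Pck1, which makes glycerol phosphate precursors in fat, had 1.68 (SE 0.74, adjusted p = 0.277). Both followed Adipoq between lungs (r = 0.88 and 0.92, as a description). Without mice 17 and 19, 9 of the 14 lay higher, beside 50.5% of all probes, and the differences were 0.51 for Dgat2 (adjusted p = 0.720) and 0.41 for Pck1 (adjusted p = 0.862). In that fit 35 of the 36 were tested, 0 upwards and 3 downwards reached the unadjusted p (9.95% of all probes), and the median difference was -0.0081, beside 0.0015 over all probes. Among the 4 regulators Cebpa differed by -0.0020, Klf15 by -0.16, Cebpb by -0.28 and Cebpd by -0.59 (SE 0.19, adjusted p = 0.174), and 57.5% of all probes lay lower in D3. Plin2, the droplet protein of many cell types, lay lower by -0.57 (SE 0.17, adjusted p = 0.155). Cebpd and Plin2 were at -0.42 (adjusted p = 0.532) and -0.57 (adjusted p = 0.396) without mice 17 and 19. In forestomach 0 of 36 passed at D3, 3 upwards and 0 downwards reached the unadjusted p (9.23% of all probes), and the median difference was -0.04. In liver 34 of the 36 were tested, 0 passed, 1 upwards reached the unadjusted p (Pck1, 0.32, adjusted p = 0.977; 4.79% of all probes), and the median difference was 0.01.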

How the data were processed

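RNA of 56 tissue samples was hybridised by the authors to 2-colour Agilent arrays, with the sample in Cy5 and universal reference RNA in Cy3 on every array and no dye swap. Spot intensities and above-background flags are as deposited, from Feature Extraction 10.7.3.1 per the file headers. The table of log2 ratios was made by the authors from median signals by LOWESS without background subtraction. These ratios were tested with limma 3.58.1 in R 4.3.3 on probes well above background on at least 3 arrays of the tissue (of either tissue between tissues), in place of the MAANOVA test of the methods. Adjusted p-values are Benjamini-Hochberg values over all probes tested, and the fits were tested on simulated data. The 10 genes, the 5 nearest genes per tissue by correlation with Adipoq and the genes of the lists could be named, and both members and lists were chosen with earlier results of these data known. Of 55681 deposited probes, 26413 could be named through RefSeq accessions. Tissues with 1 number came from 1 mouse. Across probes, deviations of the tissues of a mouse correlated with a median r of 0.12 for lung and liver, 0.06 for forestomach and liver, and 0.02 for forestomach and lung. Alternatives were other normalizations of the scanner files, filters, a slide or mouse block, the array column, other probes and mice left out. All n count mice, and the number of arrays limits the precision.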

Additional observations from a re-analysis of the deposited data

Results flagged for a closer look

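In the livers of D3, Cd36 was 1.19 in mouse 17 and the nearest other value was -0.28, a gap large for the range of the group by Dixon's criterion. In the forestomachs of D3, Pparg was 2.86 in mouse 19, where the nearest other value was 1.59, and the glandular stomach list averaged 6.80 on that array. The part of glandular stomach in the Pparg value was not tested. These were the 2 values so marked among 110 groups checked, where chance alone marks about 1 group in 20.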

How the results depend on the processing

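In every dose comparison, the trends and the D3 differences between tissues, 0 members passed under each alternative run. With median centring alone 5, 3 and 2 members passed in lung against liver, forestomach against liver and forestomach against lung, in place of 3, 7 and 5 (such counts include Adipoq, Plin1 and Retn, which were measured on no liver), and forestomach minus lung was -0.10 for Plin4 and -1.04 for Pparg. The mouse as a replicate block gave 3, 8 and 5, Lpl in forestomach against liver being the added call, and changed no other call of a member. Leaving out 1 mouse at a time gave 4 to 9 members in forestomach against liver. Lpl passed there without mouse 1, 4, 7, 10, 11 or 12. In forestomach against lung, Adipoq (2.26) and Retn (1.99) passed without mouse 4, and Cidec, lower in forestomach, passed without mouse 2 or mouse 5. Other directions that turned were of values that had not passed, and the cause was not tested. Signal over background limits Lep in all tissues and Adipoq, Plin1 and Retn in liver.

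Without mice 17 and 19, or without mouse 13 as well (a choice made after the data were seen), lung D3 minus D0 was -0.016 for Cidec, -0.11 for Plin4, -0.045 for Lpl and 0.17 for Cd36. The lung trend without all 3 was -0.0098 for Cidec, -0.081 for Plin4 and 0.16 for Cd36, and without mice 17 and 19 it was 0.19 for Cd36. Median centring gave lung D3 differences of 0.18 for Cd36 and 0.098 for Pparg, trends of 0.13 and 0.052, a forestomach D3 difference of 0.19 for Pparg and 0.089 for its D3 difference between forestomach and lung. Normexp gave 0.0056 for Cd36 in lung at D3, 0.017 for its trend, and liver D3 differences of 0.053 for Fabp4 and -0.036 for Plin4. Loess gave 0.013 for the Cd36 trend. With the array column as a covariate, lung D3 was -0.49 for Lpl, 0.25 for Cd36 and 0.073 for Pparg, the Lpl trend -0.80, liver D3 0.00053 for Fabp4 and 0.11 for Pparg, and forestomach D3 -0.91 for Fabp4. Column followed dose closely in all tissues: in liver and forestomach every D1 array was in column 2 and every D2 array in column 3. These values therefore cannot separate column from dose. The slide block gave -0.089 for Fabp4 in forestomach, and the other Lpl probe -0.060 at D3 in lung and -0.15 in the trend.

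Leaving out 1 mouse at a time, lung D3 minus D0 ran from -0.029 to 0.21 for Lpl and from -0.21 to 0.078 for Cd36, whose trend ran from -0.17 to 0.10. Liver D3 ran from -0.195 to 0.079 for Fabp4, from -0.013 to 0.17 for Plin4 and from -0.16 to 0.088 for Pparg. Forestomach D3 ran from -1.35 to 0.043 for Adipoq, from -0.47 to 0.28 for Fabp4, from -0.90 to 0.36 for Cidec and from -0.54 to 0.012 for Pparg. The D3 difference between forestomach and lung ran from -1.08 to 0.070 for Plin4 and from -0.42 to 0.18 for Pparg, and lung minus liver at D0 from -0.195 to 0.49 for Fabp4.

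Correlations with Adipoq without the 2 farthest mice were 0.48 for Cidec and -0.13 for Lpl in lung, and 0.56 for Cidec, 0.59 for Cd36 and -0.11 for Pparg in forestomach. Over arrays with Adipoq above background they were 0.81 for Cidec in lung, and 0.85 for Fabp4, 0.53 for Cidec, 0.64 for Plin1, 0.42 for Cd36 and -0.020 for Pparg in forestomach. Pparg in lung had 0.63 with slide means removed.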
